A study of Mus musculus with 7 samples.

Results

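Matrix metalloproteinases (MMPs), ADAMTS proteinases and their inhibitors were described in sorted fetal mammary cells of the mouse. The 36 genes were chosen by symbol as members of these families, not by a threshold on their values, with earlier results of these data known. They are 14 MMPs, 17 ADAMTS genes, 4 tissue inhibitors of metalloproteinases (Timp1 to Timp4) and Reck, out of 38579 gene entries. Each symbol matched a single entry. RNA was sequenced in 7 libraries of freshly sorted primary cells from CD1 embryos at E17.5 (the day of gestation), obtained by a pair of sorting strategies, each giving an epithelial fraction that the labels call fetal mammary stem cells (fMaSC) and a stromal fraction.

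The Sox10/EpCAM sort gave 2 libraries of Sox10+EpCAM+ fMaSC, gated on a Sox10-Venus fluorescent reporter and on the epithelial surface protein EpCAM, and 1 library of EpCAM-negative stroma, which its label also describes as negative for Sox10 and for lineage markers. The CD24/CD49f sort gave 2 libraries of lineage-negative CD24+CD49f+ fMaSC and 2 libraries of lineage-negative CD24low stroma. Neither genotype beyond the reporter nor any treatment is given for these cells. For replicate 1 of Sox10+EpCAM+ fMaSC, removal of lineage-positive cells appears in the column name and not in the label. The labels call the libraries biological replicates but tie none to an embryo or litter, so the p-values measure the spread between these libraries. EpCAM-negative stroma has no replicate and no SD.

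MMPs are zinc proteinases that cut collagens and other matrix proteins, and most are secreted as inactive precursors or held in the cell membrane. ADAMTS proteinases are secreted relatives with thrombospondin repeats that process procollagens and cut proteoglycans such as versican and aggrecan. Timps bind and block MMPs, Timp3 also blocks several ADAM and ADAMTS enzymes, and Reck is an inhibitor anchored to the cell surface. In the mammary gland these enzymes are known for remodelling the matrix around growing ducts, with much of the supply coming from stroma.

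RefSeq promoter sequences (assembly GRCm38.p6) were at hand for 22 of the 36 genes, in 24 entries. The 250 bases before the RefSeq start are shown, 5′ to 3′ on the gene's strand. They are given for the 2 genes that were higher in fMaSC and for 2 classical inducible MMPs that stayed under 1 FPKM in every library. For Adamts18 and Mmp15 the RefSeq start differs from the gene coordinates given below, which are those of the deposited gene entries. Capitals mark matches to TGANTCA (the AP-1 letters) and to TATAAA in Mmp3 and Mmp13, and to GGGCGG (the GC box) in Adamts18 and Mmp15. Both strands were searched, so CCGCCC is a GGGCGG match on the other strand, and no marked matches overlap.
Adamts18, chr8:113848840-113849089, minus strand: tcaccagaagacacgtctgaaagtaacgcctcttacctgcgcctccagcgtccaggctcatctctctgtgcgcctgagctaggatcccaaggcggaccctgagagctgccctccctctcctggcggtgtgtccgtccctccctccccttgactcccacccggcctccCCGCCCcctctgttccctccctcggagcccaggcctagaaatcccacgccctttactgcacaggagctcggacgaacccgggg
Mmp15, chr8:95352046-95352295, plus strand: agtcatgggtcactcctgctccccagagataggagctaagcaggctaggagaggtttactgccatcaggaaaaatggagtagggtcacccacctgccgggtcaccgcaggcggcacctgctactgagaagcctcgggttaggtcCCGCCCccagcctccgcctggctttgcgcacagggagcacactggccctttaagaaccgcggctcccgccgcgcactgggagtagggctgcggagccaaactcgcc
Mmp3, chr9:7445572-7445821, plus strand: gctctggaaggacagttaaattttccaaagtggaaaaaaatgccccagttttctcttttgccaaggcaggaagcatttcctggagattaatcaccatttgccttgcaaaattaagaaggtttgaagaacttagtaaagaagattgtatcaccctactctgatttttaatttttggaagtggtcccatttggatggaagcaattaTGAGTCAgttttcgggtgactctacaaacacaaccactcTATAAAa
Mmp13, chr9:7272264-7272513, plus strand: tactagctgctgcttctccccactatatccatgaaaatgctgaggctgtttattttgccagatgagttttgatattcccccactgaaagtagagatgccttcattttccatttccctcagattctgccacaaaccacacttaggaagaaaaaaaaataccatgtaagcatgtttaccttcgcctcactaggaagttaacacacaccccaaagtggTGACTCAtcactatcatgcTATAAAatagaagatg
In Mmp13 the TGANTCA match began 35 bases and the TATAAA match 16 bases before the start, and in Mmp3 they began 46 and 7 bases before it. Of all 32851 promoters of this length, 6.75% held TGANTCA, 12.4% held TATAAA and 1.21% held both; among the 24 entries the 3 with both belong to Mmp3, Mmp7 and Mmp13. GGGCGG was in 32.7% of all promoters and in 15 of the 24 entries, those of Adamts18 and Mmp15 among them. The Adamts18 window held 15 CpG dinucleotides and the Mmp15 window 14, against 1 each for Mmp3 and Mmp13 and a median of 6 over all promoters (quartiles 2 and 16). A match describes letters and not a bound site.

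Depth estimated from low FPKM values (fragments per kilobase of transcript, scaled to the sequencing depth) was 22300000 to 33500000 fragments per library. For a 2 kb transcript, 1 fragment was worth 0.0149 to 0.0224 FPKM. The sort markers Epcam, Sox10, Cd24a and Itga6 (CD49f) were all higher in fMaSC. All 8 epithelial markers were also higher in fMaSC, with summed levels of 805 and 949 FPKM in Sox10+EpCAM+ fMaSC, 573 and 372 FPKM in CD24+CD49f+ fMaSC, 7.39 FPKM in EpCAM-negative stroma and 3.71 and 2.77 FPKM in CD24low stroma. The 10 fibroblast and mesenchyme markers summed to 48.1 and 77.9 FPKM in Sox10+EpCAM+ fMaSC, 2263 and 3515 FPKM in CD24+CD49f+ fMaSC, 6548 FPKM in EpCAM-negative stroma and 7698 and 7293 FPKM in CD24low stroma. The CD24+CD49f+ fMaSC libraries thus carried stromal marker RNA at a level between the other fractions, whereas the Sox10+EpCAM+ libraries carried little. In the pooled comparison of 12 marker lists, calls were made for 8 of 8 epithelial genes (all higher), 8 of 10 fibroblast and mesenchyme genes, 6 of 6 adipocyte, 5 of 6 pericyte, 2 of 6 endothelial and 2 of 2 skeletal muscle genes tested (all lower), and 4 of 7 Schwann cell and melanoblast, 1 of 5 leukocyte and 1 of 2 cartilage and bone genes (all higher). Of 7 mast cell genes 4 were lower and 1 higher, and 0 of 3 erythroid genes and 0 of 1 epidermal gene were called by limma, with 3 erythroid genes and 0 epidermal genes at an unadjusted p under 0.05. CD24+CD49f+ fMaSC replicate 1 stood apart in erythroid RNA, with 4665 FPKM over 5 genes, against 489 FPKM in replicate 2 and at most 144 FPKM in the other libraries. In bulk libraries, fewer cells of a type and less RNA per cell cannot be told apart.

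Of the 36 genes, 31 passed the filter of 1 FPKM or more in at least 2 libraries. Mmp9 and Adamts8 passed only through stroma libraries, and Adamts18 and Adamts20 only through fMaSC libraries, so that counts over the 31 are not counts over all 36. Differences are given on the log2(FPKM + 1) scale, fMaSC minus stroma, on which changes of weakly expressed genes appear smaller than they are. A gene was called where the limma p, adjusted over all 14418 genes tested, was under 0.05. Over both sorts together, 2 genes were higher in fMaSC (Adamts18 and Mmp15) and 14 were lower. Of all genes tested, 25.1% were called in this pooled comparison, 15.6% higher and 9.5% lower. The median difference was -0.95 over the 31 genes and 0.12 over all genes. By role, the median was -0.88 for the 10 MMPs tested, -1.22 for the 4 Timps and Reck and -0.79 for the 16 ADAMTS genes tested.

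**Figure D1:**
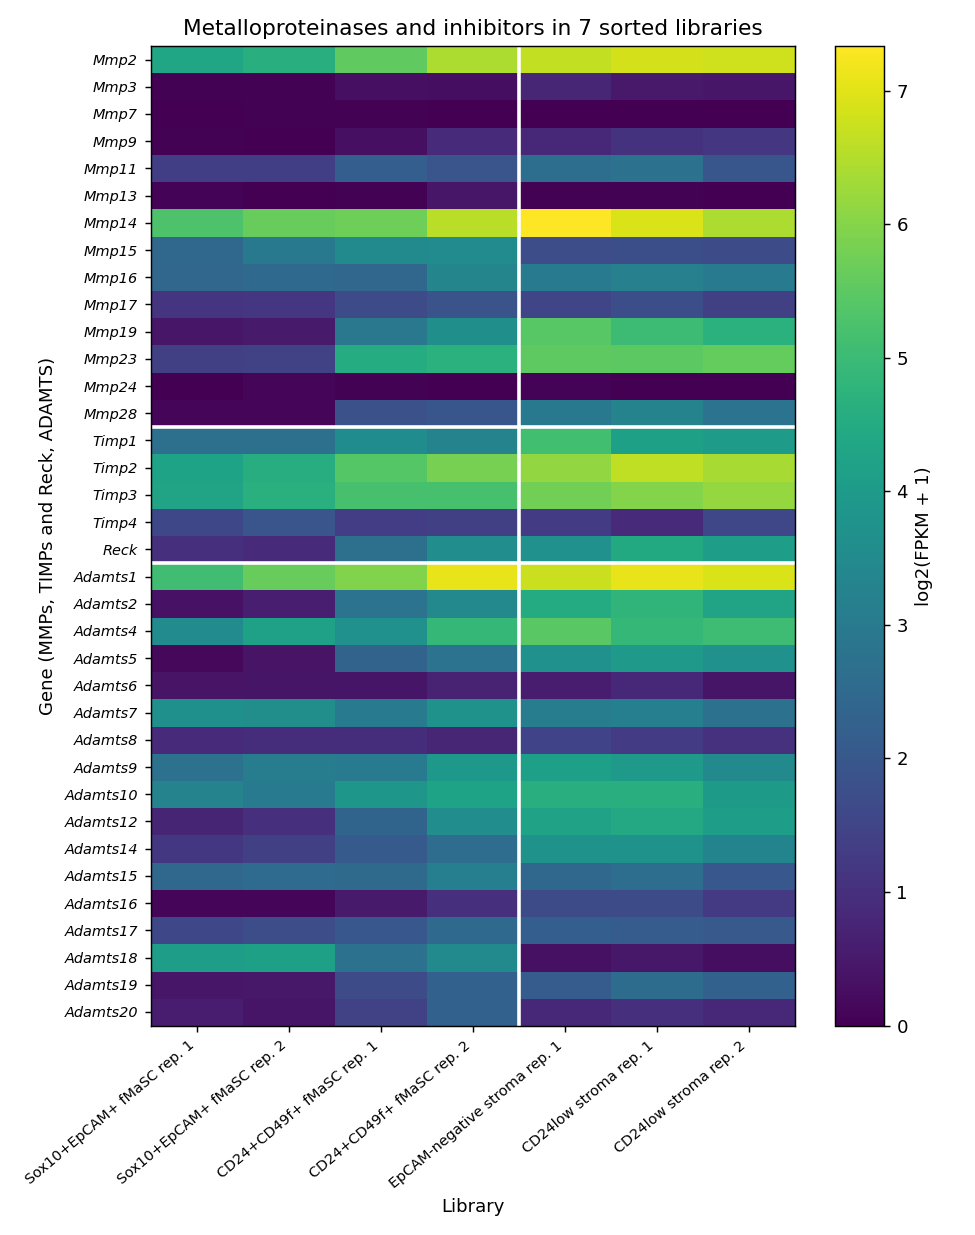
Heat map of log2(FPKM + 1) for all 36 genes (rows, grouped as MMPs, Timps with Reck, and ADAMTS) in the 7 libraries (columns, fMaSC left of the vertical line and stroma right of it). Mmp2, Mmp14, Timp2, Timp3 and Adamts1 are among the brightest rows, Adamts18 is brighter in the 4 fMaSC libraries than in the 3 stroma libraries, and Mmp3, Mmp7, Mmp13 and Mmp24 are dark throughout.

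Within single sorts, 19 of the 31 genes were called in the Sox10/EpCAM sort, 2 higher and 17 lower in Sox10+EpCAM+ fMaSC than in EpCAM-negative stroma, where 26.1% of all genes were called, 12.5% higher and 13.6% lower. In the CD24/CD49f sort 8 were called, 2 higher and 6 lower in CD24+CD49f+ fMaSC relative to CD24low stroma, where 10.7% of all genes were called, 7.78% of all genes called higher and 2.94% lower. The share of FPKM from mitochondrial genes was 19.0% and 15.6% in Sox10+EpCAM+ fMaSC, 17.9% and 9.94% in CD24+CD49f+ fMaSC, 6.23% in EpCAM-negative stroma and 10.9% and 17.7% in CD24low stroma. It was thus higher in fMaSC within the Sox10/EpCAM sort and overlapped within the CD24/CD49f sort. The FPKM of all genes summed to 738869 and 607325 in Sox10+EpCAM+ fMaSC, 752737 and 424984 in CD24+CD49f+ fMaSC, 378952 in EpCAM-negative stroma and 387955 and 547649 in CD24low stroma. With these sums made equal (TPM scaling) 17 members were called in the Sox10/EpCAM sort, 1 higher and 16 lower, and 1 in the CD24/CD49f sort. Over all 14418 genes TPM scaling gave 2213 and 556 calls in these sorts, against 3762 and 1545 as deposited. The part of the mitochondrial share was not tested. The number called depended on the libraries: with each library left out in turn it ran from 10 to 23 in the Sox10/EpCAM sort, from 2 to 15 in the CD24/CD49f sort and from 7 to 23 in the pooled comparison. Over all genes the number called also moved with the library left out, and those ranges are given in the closing sections. Where single fractions are compared, a library of neither fraction does not enter the difference itself. It enters only the shared spread, the filter and the adjustment of p. Levels of fMaSC and stroma libraries did not overlap for 2 genes that were higher in fMaSC and 14 that were lower, against 23.3% and 13.7% of all genes tested. The 14 without overlap and the 14 called lower in the pooled comparison shared 13 genes: Mmp9 was called but overlapped, and Adamts8 did not overlap but was not called.

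**Figure D2:**
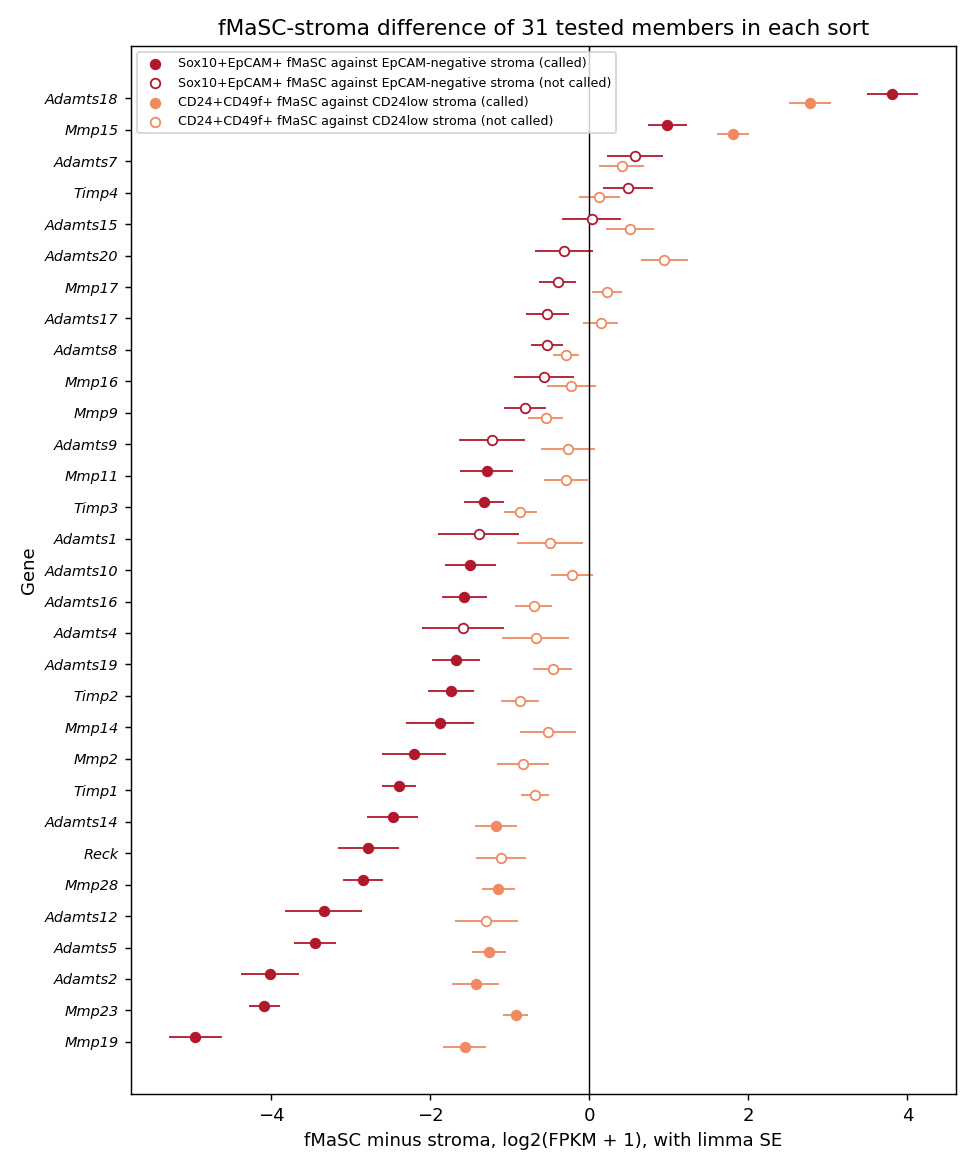
Difference on the log2(FPKM + 1) scale, fMaSC minus stroma, with its limma standard error, for the 31 genes tested, ordered by the Sox10/EpCAM sort; filled points were called and open points were not. Adamts18 and Mmp15 lie right of 0 in both sorts, and Mmp19, Mmp23 and Adamts2 lie farthest left in the Sox10/EpCAM sort.

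Adamts18, a secreted ADAMTS proteinase (ENSMUSG00000053399, chromosome 8, 113697126 to 113848615, minus strand, GRCm38), was the member most biased to fMaSC. It had 16.4 and 16.9 FPKM in Sox10+EpCAM+ fMaSC, 5.85 and 10.3 FPKM in CD24+CD49f+ fMaSC, 0.255 FPKM in EpCAM-negative stroma and 0.387 and 0.197 FPKM in CD24low stroma. All 4 fMaSC libraries lay above all 3 stroma libraries, with means of 12.4 ± 5.26 FPKM in fMaSC (SD, n = 4) and 0.280 ± 0.0972 FPKM in stroma (SD, n = 3). Adamts18 passed the filter only through fMaSC libraries, the fractions in which it is high. It rose in Sox10+EpCAM+ fMaSC by 3.81 (SE 0.32, adjusted p = 0.000778) and in CD24+CD49f+ fMaSC by 2.77 (SE 0.26, adjusted p = 0.00245) against the stroma of the same sort. The call held in every alternative setting and with any library left out, in both sorts and in the pooled comparison. Its difference between the fMaSC fractions, 1.00 toward Sox10+EpCAM+ cells, did not pass the test (adjusted p = 0.0696).

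Mmp15, which encodes a membrane-spanning MMP (ENSMUSG00000031790, chromosome 8, 95352268 to 95374293, plus strand), had 4.58 and 6.74 FPKM in Sox10+EpCAM+ fMaSC, 10.4 and 10.5 FPKM in CD24+CD49f+ fMaSC, 2.33 FPKM in EpCAM-negative stroma and 2.36 and 2.23 FPKM in CD24low stroma. Every fMaSC library lay above every stroma library, and the 3 stroma libraries lay close together. In contrast to Adamts18, the higher values were those of CD24+CD49f+ fMaSC. The gene rose by 1.80 (SE 0.20, adjusted p = 0.00437) in CD24+CD49f+ fMaSC and by 0.98 (SE 0.25, adjusted p = 0.0332) in Sox10+EpCAM+ fMaSC; the fMaSC fractions differed by -0.80 (adjusted p = 0.0614), Sox10+EpCAM+ minus CD24+CD49f+, short of the threshold. The Sox10/EpCAM call ended without Sox10+EpCAM+ fMaSC replicate 1 (1.22, adjusted p = 0.0543) or 2 (0.74, adjusted p = 0.17) and without either CD24low stroma library (adjusted p = 0.0675 and 0.0674). In the CD24/CD49f sort Mmp15 lost its call once CD24low stroma replicate 2 was dropped (1.77, adjusted p = 0.05). Giving every library an equal total (TPM scaling) ended the call in both sorts and in the pooled comparison, where it left 1.18 (adjusted p = 0.105).

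The most abundant MMP transcripts were those of Mmp14 and Mmp2. Mmp14 encodes the membrane-type enzyme that activates proMMP2 at the cell surface with TIMP2 as an adaptor, and Mmp2 encodes gelatinase A. Mmp14 had 38.2 and 48.2 FPKM in Sox10+EpCAM+ fMaSC, 52.01 and 93.5 FPKM in CD24+CD49f+ fMaSC, 160.4 FPKM in EpCAM-negative stroma and 119 and 84.8 FPKM in CD24low stroma. It was therefore abundant in fMaSC as well as stroma libraries, and CD24+CD49f+ fMaSC replicate 2 lay above CD24low stroma replicate 2. Mmp14 fell in Sox10+EpCAM+ fMaSC by 1.88 (SE 0.43, adjusted p = 0.0233), a call that ended without replicate 1 (-1.71, adjusted p = 0.135) or replicate 2 (-2.04, adjusted p = 0.0804) of that group. For CD24+CD49f+ fMaSC against CD24low stroma the difference was -0.52 (SE 0.35, adjusted p = 0.418). Mmp2 had 18.7 and 23.8 FPKM in Sox10+EpCAM+ fMaSC, 45.6 and 85.8 FPKM in CD24+CD49f+ fMaSC, 101 FPKM in EpCAM-negative stroma and 115 and 110.4 FPKM in CD24low stroma. Its fMaSC and stroma libraries did not overlap. It fell in Sox10+EpCAM+ fMaSC by 2.20 (SE 0.40, adjusted p = 0.0106), and the call ended without replicate 1 of that group (-2.04, adjusted p = 0.0758). In CD24+CD49f+ fMaSC its difference was -0.84 (SE 0.33, adjusted p = 0.179).

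Mmp2 and Mmp14 together made up 80.5% and 81.2% of the summed level of the 14 MMPs in Sox10+EpCAM+ fMaSC, 64.9% and 73.2% in CD24+CD49f+ fMaSC, 70.0% in EpCAM-negative stroma and 69.1% and 67.7% in CD24low stroma. The MMP sum itself was 70.7 and 88.8 FPKM in Sox10+EpCAM+ fMaSC, 150.4 and 245 FPKM in CD24+CD49f+ fMaSC, 373 FPKM in EpCAM-negative stroma and 338 and 288 FPKM in CD24low stroma. In FPKM as deposited, the fMaSC libraries thus held less MMP transcript in sum than any stroma library. In Sox10+EpCAM+ fMaSC what they held was mostly that of this activator and substrate pair. The sums were not rescaled for the unequal FPKM totals of the libraries.

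Mmp19, Mmp23 and Mmp28 had the largest falls among the MMPs. Mmp19 (ENSMUSG00000025355, chromosome 10, 128790953 to 128800824), a secreted MMP, had 0.356 and 0.434 FPKM in Sox10+EpCAM+ fMaSC, 6.63 and 11.5 FPKM in CD24+CD49f+ fMaSC, 42.2 FPKM in EpCAM-negative stroma and 31.6 and 24.6 FPKM in CD24low stroma. The order of its levels was the same for every library of each fraction, with Sox10+EpCAM+ fMaSC lowest and both stroma fractions highest. Mmp23 (ENSMUSG00000029061, chromosome 4, 155650655 to 155653384) encodes an MMP tethered by its N terminus, and had 1.62 and 1.74 FPKM in Sox10+EpCAM+ fMaSC, 22.5 and 24.6 FPKM in CD24+CD49f+ fMaSC, 44.4 FPKM in EpCAM-negative stroma and 43.8 and 47.3 FPKM in CD24low stroma. Mmp28, or epilysin, had 0.0714 and 0.103 FPKM in Sox10+EpCAM+ fMaSC, 2.55 and 2.89 FPKM in CD24+CD49f+ fMaSC, 6.82 FPKM in EpCAM-negative stroma and 8.76 and 5.93 FPKM in CD24low stroma. All 3 fell in Sox10+EpCAM+ fMaSC and all 3 fell less far, but still past the threshold, in CD24+CD49f+ fMaSC. In the Sox10/EpCAM sort Mmp19 fell by 4.95 (SE 0.33, adjusted p = 0.000421), Mmp23 by 4.08 (SE 0.19, adjusted p = 0.00026) and Mmp28 by 2.85 (SE 0.25, adjusted p = 0.000961), and these calls held in every alternative. In the CD24/CD49f sort they fell by 1.57 (SE 0.27, adjusted p = 0.0194), 0.92 (SE 0.16, adjusted p = 0.0187) and 1.15 (SE 0.21, adjusted p = 0.0219), in the same gene order. These last calls ended when either Sox10+EpCAM+ fMaSC library was left out (adjusted p 0.0565 to 0.0921) or CD24low stroma replicate 1 was (0.0836 to 0.12), and for Mmp19 (0.0853) and Mmp23 (0.12) also without CD24low stroma replicate 2. The Sox10+EpCAM+ fMaSC libraries are not part of these CD24/CD49f differences and bear on the calls only through the shared spread, the filter and the adjustment. TPM scaling ended all 3 calls as well, and dropping the filter on low values ended those of Mmp19 and Mmp28.

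Other MMPs were lower in level or closer between fractions. Mmp11, a stromelysin activated inside the cell by furin, had 1.58 and 1.58 FPKM in Sox10+EpCAM+ fMaSC, 3.55 and 2.86 FPKM in CD24+CD49f+ fMaSC, 5.30 FPKM in EpCAM-negative stroma and 5.71 and 2.94 FPKM in CD24low stroma. It fell in Sox10+EpCAM+ fMaSC by 1.29 (SE 0.34, adjusted p = 0.0371), a call lost without replicate 1 (adjusted p = 0.15) or 2 (adjusted p = 0.135) of that group, and CD24low stroma replicate 2 lay below CD24+CD49f+ fMaSC replicate 1. Mmp16, a membrane-spanning MMP, had 4.32 and 4.70 FPKM in Sox10+EpCAM+ fMaSC, 4.33 and 9.06 FPKM in CD24+CD49f+ fMaSC, 7.18 FPKM in EpCAM-negative stroma and 8.16 and 6.99 FPKM in CD24low stroma, with no call in any comparison. Mmp9, gelatinase B, had 0.0350 and 0.0101 FPKM in Sox10+EpCAM+ fMaSC, 0.225 and 0.826 FPKM in CD24+CD49f+ fMaSC, 0.787 FPKM in EpCAM-negative stroma and 1.12 and 1.26 FPKM in CD24low stroma. It was lower in fMaSC in the pooled comparison at -0.65 (SE 0.18, adjusted p = 0.0402), but CD24+CD49f+ fMaSC replicate 2 overlapped stroma. That call ended without Sox10+EpCAM+ fMaSC replicate 1 (adjusted p = 0.104) or 2 (adjusted p = 0.109), CD24+CD49f+ fMaSC replicate 1 (adjusted p = 0.0991) or the EpCAM-negative library (adjusted p = 0.179). It also ended with a pseudocount of 0.1, without the filter on low values and with TPM scaling. Mmp9 had passed that filter only through stroma libraries, where it is highest. The 10 leukocyte markers are from cells in which Mmp9 is well known. Their sum was 4.28 and 7.62 FPKM in Sox10+EpCAM+ fMaSC and 46.9 and 15.8 FPKM in CD24+CD49f+ fMaSC. In stroma it was 6.74 FPKM (EpCAM-negative) and 15.8 and 6.18 FPKM (CD24low). Of the replicate 1 sum in CD24+CD49f+ fMaSC, S100a8 gave 16.2 FPKM and S100a9 21.2 FPKM. Both genes and Ngp were lower in both CD24low stroma libraries than in either CD24+CD49f+ fMaSC library. Csf1r and Itgam ran the other way, with 0.939 and 0.482 FPKM and 1.18 and 0.446 FPKM in CD24low stroma. In CD24+CD49f+ fMaSC they had 0.265 and 0.0100 FPKM and 0.310 and 0.261 FPKM. The other genes of the list overlapped between these fractions. The CD24/CD49f fractions and EpCAM-negative stroma are labelled lineage-negative, a gate that commonly removes blood cells, and the part of leukocytes in the Mmp9 result was not tested. Mmp17, which encodes an MMP anchored to the membrane by a lipid, stayed between 1.17 and 2.69 FPKM and was not called.

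Mmp3, Mmp7, Mmp13 and Mmp24 did not pass the filter and were not tested. Their highest values in any library were 0.726 FPKM for Mmp3 (stromelysin, in EpCAM-negative stroma), 0.0340 FPKM for Mmp7 (matrilysin, in Sox10+EpCAM+ fMaSC), 0.356 FPKM for Mmp13 (a collagenase, in CD24+CD49f+ fMaSC replicate 2) and 0.0622 FPKM for Mmp24 (a membrane-spanning MMP, in Sox10+EpCAM+ fMaSC). At the estimated depths these correspond to about 33, 1.1, 24 and 7.9 fragments, in the same gene order. Mmp3, Mmp7 and Mmp13 lie in a cluster on chromosome 9, with 162.5 kb between Mmp13 and Mmp3 and 236.1 kb between Mmp3 and Mmp7.

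**Figure D3:**
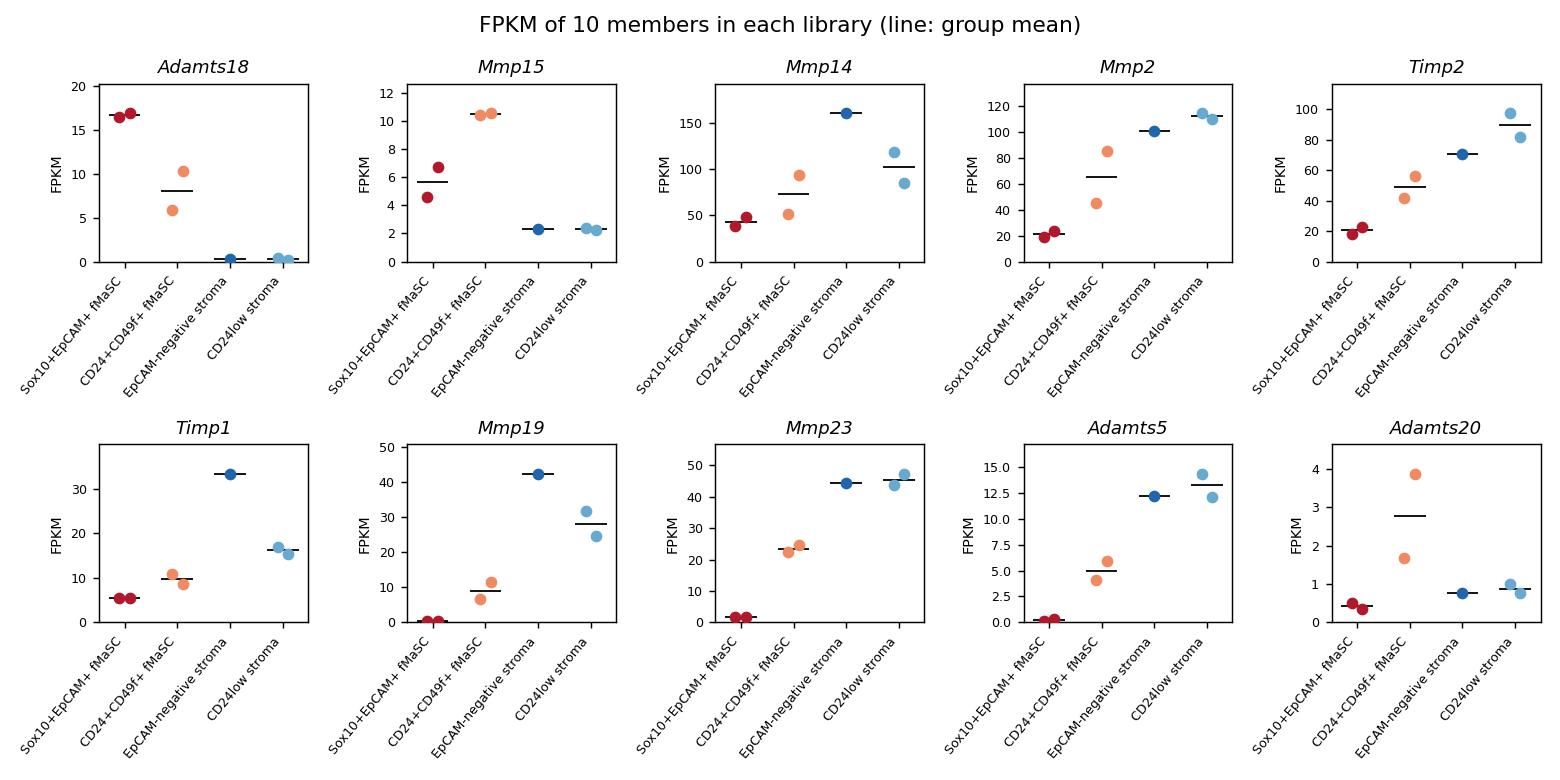
FPKM of 10 genes in each library (points), by sort fraction (horizontal axis, fMaSC fractions left of stroma fractions); the line is the group mean, which for EpCAM-negative stroma is its single library. Adamts18 and Mmp15 are high in fMaSC, Mmp19, Mmp23 and Adamts5 are near 0 in Sox10+EpCAM+ fMaSC and intermediate in CD24+CD49f+ fMaSC, and Adamts20 is highest in CD24+CD49f+ fMaSC.

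Among the inhibitors, Timp1, Timp2, Timp3 and Reck fell in fMaSC and Timp4 was not called. Timp2, the inhibitor that also helps MMP14 to activate proMMP2 (ENSMUSG00000017466, chromosome 11, 118301069 to 118355740), had 18.2 and 22.9 FPKM in Sox10+EpCAM+ fMaSC, 41.6 and 56.1 FPKM in CD24+CD49f+ fMaSC, 70.4 FPKM in EpCAM-negative stroma and 97.5 and 81.95 FPKM in CD24low stroma. Timp3, which binds to the matrix, had 18.3 and 24.1 FPKM in Sox10+EpCAM+ fMaSC, 35.8 and 35.8 FPKM in CD24+CD49f+ fMaSC, 54.2 FPKM in EpCAM-negative stroma and 61.3 and 71.2 FPKM in CD24low stroma. Timp1, a secreted inhibitor, had 5.53 and 5.53 FPKM in Sox10+EpCAM+ fMaSC, 10.8 and 8.69 FPKM in CD24+CD49f+ fMaSC, 33.3 FPKM in EpCAM-negative stroma and 16.99 and 15.3 FPKM in CD24low stroma. For all 3 the fMaSC and stroma libraries did not overlap, and Sox10+EpCAM+ fMaSC kept 22.9% (Timp2), 32.0% (Timp3) and 34.2% (Timp1) of the CD24low stroma mean. CD24low stroma belongs to the other sort, and against EpCAM-negative stroma Timp1 fell farthest of the 3. In the Sox10/EpCAM sort Timp2 fell by 1.74 (SE 0.29, adjusted p = 0.00804), Timp3 by 1.33 (SE 0.25, adjusted p = 0.0126) and Timp1 by 2.39 (SE 0.21, adjusted p = 0.000961). The Timp1 call held in every alternative. The Timp2 call ended without Sox10+EpCAM+ fMaSC replicate 1 (adjusted p = 0.0734), and the Timp3 call without replicate 1 (adjusted p = 0.113) or 2 (adjusted p = 0.0503). In the CD24/CD49f sort the differences were -0.87 (adjusted p = 0.0745), -0.87 (adjusted p = 0.0513) and -0.68 (adjusted p = 0.0639), in the same order, none past the threshold.

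Reck had 0.968 and 0.858 FPKM in Sox10+EpCAM+ fMaSC, 5.58 and 11.2 FPKM in CD24+CD49f+ fMaSC, 12.1 FPKM in EpCAM-negative stroma and 21.1 and 15.9 FPKM in CD24low stroma. In every alternative it fell in Sox10+EpCAM+ fMaSC, by 2.78 (SE 0.39, adjusted p = 0.00413), and this fraction kept 4.93% of the CD24low stroma mean, a smaller share than for any Timp. In CD24+CD49f+ fMaSC its difference was -1.11 (SE 0.32, adjusted p = 0.0838). Timp4 stayed between 0.881 and 2.84 FPKM, with its highest value in Sox10+EpCAM+ fMaSC replicate 2, and its pooled difference was 0.27 (SE 0.21, adjusted p = 0.34).

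Inhibitor and proteinase levels were also summed. Timp1 to Timp4 summed to 44.0 and 55.3 FPKM in Sox10+EpCAM+ fMaSC, 89.7 and 102 FPKM in CD24+CD49f+ fMaSC, 159 FPKM in EpCAM-negative stroma and 177 and 170.4 FPKM in CD24low stroma. Divided by the MMP sum, this gave 0.623 in both Sox10+EpCAM+ fMaSC libraries, 0.596 and 0.417 in CD24+CD49f+ fMaSC, 0.427 in EpCAM-negative stroma and 0.523 and 0.591 in CD24low stroma. The ratio of Timp to MMP transcript therefore overlapped between fMaSC and stroma libraries. Both of these sums, as deposited, were lower in every fMaSC library than in every stroma library. The ADAMTS sum was 96.9 and 122 FPKM in Sox10+EpCAM+ fMaSC and 137 and 274 FPKM in CD24+CD49f+ fMaSC. In stroma it was 278 FPKM (EpCAM-negative) and 303 and 253 FPKM (CD24low), so that this sum overlapped. These are ratios of transcript levels per length and not of protein or activity.

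The ADAMTS proteinases that cut versican and aggrecan were led by Adamts1. It had 32.8 and 48.7 FPKM in Sox10+EpCAM+ fMaSC, 60.3 and 135 FPKM in CD24+CD49f+ fMaSC, 107 FPKM in EpCAM-negative stroma and 135 and 120.1 FPKM in CD24low stroma. CD24+CD49f+ fMaSC replicate 2 reached the stroma range and no comparison called it, with -1.39 (SE 0.51, adjusted p = 0.0958) in the Sox10/EpCAM sort. Adamts4, an aggrecanase, had 10.7 and 17.2 FPKM in Sox10+EpCAM+ fMaSC, 12.03 and 28.7 FPKM in CD24+CD49f+ fMaSC, 42.8 FPKM in EpCAM-negative stroma and 28.4 and 32.4 FPKM in CD24low stroma, also without a call (-1.59 (SE 0.52, adjusted p = 0.07) in the Sox10/EpCAM sort). Adamts5, the other main aggrecanase (chromosome 16, 85858170 to 85901125), had 0.105 and 0.312 FPKM in Sox10+EpCAM+ fMaSC, 4.09 and 5.88 FPKM in CD24+CD49f+ fMaSC, 12.2 FPKM in EpCAM-negative stroma and 14.3 and 12.1 FPKM in CD24low stroma. All its fMaSC libraries lay below all stroma libraries, and Sox10+EpCAM+ fMaSC kept 1.58% of the CD24low stroma mean, against 32.0% for Adamts1 and 45.8% for Adamts4. Adamts5 fell by 3.45 (SE 0.26, adjusted p = 0.000585) in Sox10+EpCAM+ fMaSC, a call that held in every alternative, and by 1.26 (SE 0.22, adjusted p = 0.0186) in CD24+CD49f+ fMaSC. The second call ended without either Sox10+EpCAM+ fMaSC library (adjusted p = 0.0575 and 0.0547), CD24low stroma replicate 1 (adjusted p = 0.115) or replicate 2 (adjusted p = 0.0902). A pseudocount of 0.1, no filter on low values and TPM scaling each ended it too. Adamts1 and Adamts5 are neighbours on chromosome 16, 55.1 kb apart.

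Further versican-cutting enzymes were not called or were called in a single comparison. Adamts9 had 5.63 and 7.55 FPKM in Sox10+EpCAM+ fMaSC, 7.01 and 14.02 FPKM in CD24+CD49f+ fMaSC, 16.6 FPKM in EpCAM-negative stroma and 14.2 and 10.5 FPKM in CD24low stroma, and its difference of -1.23 (SE 0.41, adjusted p = 0.0783) in the Sox10/EpCAM sort missed the threshold. Adamts15 had 4.41 and 4.93 FPKM in Sox10+EpCAM+ fMaSC, 4.76 and 7.93 FPKM in CD24+CD49f+ fMaSC, 4.56 FPKM in EpCAM-negative stroma and 5.33 and 3.002 FPKM in CD24low stroma, with overlap between fMaSC and stroma. Adamts8, its neighbour 20.1 kb away on chromosome 9, stayed between 0.720 and 1.77 FPKM and was uncalled. Adamts20, which in the mouse acts in melanoblast survival in the skin, had 0.503 and 0.345 FPKM in Sox10+EpCAM+ fMaSC, 1.67 and 3.87 FPKM in CD24+CD49f+ fMaSC, 0.773 FPKM in EpCAM-negative stroma and 0.991 and 0.764 FPKM in CD24low stroma. It passed the filter through the CD24+CD49f+ fMaSC libraries alone, the fraction in which it is highest, and was called between the fMaSC fractions, falling in Sox10+EpCAM+ cells by 1.34 (SE 0.29, adjusted p = 0.043). The call ended without Sox10+EpCAM+ fMaSC replicate 1 (adjusted p = 0.209) or 2 (0.241) and CD24low stroma replicate 1 (0.0912) or 2 (0.0904), and also without the filter (0.132) and with TPM (0.133) or quantile (0.101) scaling. The 8 Schwann cell and melanoblast markers summed to 25.1 and 38.1 FPKM in Sox10+EpCAM+ fMaSC, 169 and 95.7 FPKM in CD24+CD49f+ fMaSC, 3.88 FPKM in EpCAM-negative stroma and 14.7 and 10.9 FPKM in CD24low stroma. Within CD24+CD49f+ fMaSC, replicate 1 had more of these markers and replicate 2 more Adamts20; the part of such cells in the result was not tested.

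The procollagen N-proteinases Adamts2 and Adamts14 fell in fMaSC in both sorts. Adamts2 had 0.292 and 0.546 FPKM in Sox10+EpCAM+ fMaSC, 5.87 and 9.91 FPKM in CD24+CD49f+ fMaSC, 21.9 FPKM in EpCAM-negative stroma and 27.03 and 18.4 FPKM in CD24low stroma. Adamts14 had 1.27 and 1.62 FPKM in Sox10+EpCAM+ fMaSC, 3.19 and 5.21 FPKM in CD24+CD49f+ fMaSC, 12.5 FPKM in EpCAM-negative stroma and 12.5 and 8.86 FPKM in CD24low stroma. Neither gene overlapped between fMaSC and stroma. Adamts2 fell by 4.02 (SE 0.36, adjusted p = 0.000986) in Sox10+EpCAM+ fMaSC and by 1.43 (SE 0.30, adjusted p = 0.033) in CD24+CD49f+ fMaSC, and Adamts14 fell by 2.47 (SE 0.32, adjusted p = 0.00326) and 1.18 (SE 0.26, adjusted p = 0.0417). The Sox10/EpCAM calls held in every alternative. The CD24/CD49f calls of both genes ended without any of 5 libraries: either Sox10+EpCAM+ fMaSC library (adjusted p 0.0788 to 0.106), CD24+CD49f+ fMaSC replicate 1 (0.0596 and 0.0775), or either CD24low stroma library (0.0908 to 0.193). A pseudocount of 0.1, no filter on low values and TPM scaling each ended both calls too. Their relative Adamts3, which is not among the 36 genes and was looked at after its values were seen, ran the other way, with 4.14 and 4.10 FPKM in Sox10+EpCAM+ fMaSC, 1.47 and 2.79 FPKM in CD24+CD49f+ fMaSC, 0.430 FPKM in EpCAM-negative stroma and 0.455 and 0.372 FPKM in CD24low stroma. It rose in the pooled comparison by 1.40 (SE 0.22, adjusted p = 0.00667), in every alternative.

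Adamts7 and Adamts12, which both cut cartilage oligomeric matrix protein, parted ways. Adamts12 had 0.699 and 0.998 FPKM in Sox10+EpCAM+ fMaSC, 4.16 and 11.02 FPKM in CD24+CD49f+ fMaSC, 17.6 FPKM in EpCAM-negative stroma and 20.5 and 16.4 FPKM in CD24low stroma, and fell by 3.34 (SE 0.49, adjusted p = 0.00487) in Sox10+EpCAM+ fMaSC in every alternative. For CD24+CD49f+ fMaSC its difference was -1.30 (SE 0.40, adjusted p = 0.101). Adamts7 had 11.7 and 11.3 FPKM in Sox10+EpCAM+ fMaSC, 7.004 and 12.5 FPKM in CD24+CD49f+ fMaSC, 7.40 FPKM in EpCAM-negative stroma and 7.92 and 5.86 FPKM in CD24low stroma, with overlapping ranges and a pooled difference of 0.48 (SE 0.21, adjusted p = 0.135). Adamts10, a proteinase linked to fibrillin microfibrils, had 8.68 and 7.01 FPKM in Sox10+EpCAM+ fMaSC, 13.9 and 18.1 FPKM in CD24+CD49f+ fMaSC, 23.8 FPKM in EpCAM-negative stroma and 23.1 and 14.8 FPKM in CD24low stroma. It fell in Sox10+EpCAM+ fMaSC by 1.49 (SE 0.32, adjusted p = 0.0195), a call that ended without replicate 1 (adjusted p = 0.0726) or 2 (adjusted p = 0.108) of that group. Adamts16, the closest relative of Adamts18, had the opposite distribution, with 0.0763 and 0.0926 FPKM in Sox10+EpCAM+ fMaSC, 0.443 and 1.004 FPKM in CD24+CD49f+ fMaSC, 2.22 FPKM in EpCAM-negative stroma and 2.20 and 1.38 FPKM in CD24low stroma. Adamts19 had 0.371 and 0.380 FPKM in Sox10+EpCAM+ fMaSC, 2.17 and 3.87 FPKM in CD24+CD49f+ fMaSC, 3.41 FPKM in EpCAM-negative stroma and 5.01 and 3.87 FPKM in CD24low stroma. Both fell in Sox10+EpCAM+ fMaSC, Adamts16 by 1.57 (SE 0.28, adjusted p = 0.0102) and Adamts19 by 1.68 (SE 0.30, adjusted p = 0.0101), and both calls ended without replicate 1 (adjusted p = 0.0604 and 0.0601) or replicate 2 (adjusted p = 0.0545 and 0.0555) of that group. Adamts17, the closest relative of Adamts19, lay between 2.00 and 4.71 FPKM and was not called, and Adamts6, with at most 0.803 FPKM, was not tested.

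Over both sorts together, 5 calls held in every alternative: Adamts18 rose by 3.19 (SE 0.28, adjusted p = 0.000616), while Adamts5 fell by 2.14 (SE 0.44, adjusted p = 0.016), Mmp28 by 1.83 (SE 0.35, adjusted p = 0.013), Adamts14 by 1.69 (SE 0.31, adjusted p = 0.0106) and Timp3 by 1.05 (SE 0.18, adjusted p = 0.00804). Mmp15 rose by 1.47 (SE 0.22, adjusted p = 0.00492) and its call ended only with TPM scaling, and Timp2 fell by 1.22 (SE 0.24, adjusted p = 0.0136) and its call ended only without the EpCAM-negative library (-0.87, adjusted p = 0.0721). Adamts2 fell by 2.46 (SE 0.53, adjusted p = 0.0183), a call that ended without Sox10+EpCAM+ fMaSC replicate 2 (adjusted p = 0.0548) or the filter (adjusted p = 0.0516). The pooled fit takes a single difference for both sorts. For Mmp19, Mmp23 and Adamts5, whose differences were not the same in both sorts by the test given below, the pooled value averages unlike differences. Without the EpCAM-negative library the pooled fit rests on the CD24/CD49f sort alone. Each difference then falls back to about the value of that sort, such as -1.57 for Mmp19 and -1.26 for Adamts5. The other pooled falls were Mmp2 -1.38 (adjusted p = 0.031), Mmp19 -2.92 (adjusted p = 0.0223), Mmp23 -2.19 (adjusted p = 0.0397), Timp1 -1.36 (adjusted p = 0.0311), Reck -1.78 (adjusted p = 0.0194), Adamts12 -2.11 (adjusted p = 0.0221) and Adamts16 -1.05 (adjusted p = 0.0235). Each of these 7 was lost without either Sox10+EpCAM+ fMaSC library (adjusted p 0.0525 to 0.0982), and also without the filter on low values. TPM scaling ended the call of Mmp2 and a pseudocount of 0.1 that of Mmp23. All but Timp1 were also lost without CD24+CD49f+ fMaSC replicate 1 (0.0522 to 0.0878), all but Mmp19 without CD24low stroma replicate 1 (0.052 to 0.0716), and Mmp23 also without CD24low stroma replicate 2 (0.0503). Without the EpCAM-negative library Mmp2 (0.176), Timp1 (0.0627), Reck (0.0825), Adamts12 (0.0995) and Adamts16 (0.118) lost the call too.

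The fMaSC fractions were also set against each other. Of the 31 genes, 11 were called lower in Sox10+EpCAM+ fMaSC than in CD24+CD49f+ fMaSC and 0 higher, where 9.99% of all genes were called, 8.04% lower and 1.95% higher. They were Mmp23 -3.19 (adjusted p = 0.000873), Mmp19 -2.81 (adjusted p = 0.00333), Adamts5 -2.30 (adjusted p = 0.00311), Adamts2 -2.62 (adjusted p = 0.00533), Mmp28 -1.77 (adjusted p = 0.00609), Reck -2.23 (adjusted p = 0.011), Adamts19 -1.51 (adjusted p = 0.017), Adamts12 -2.10 (adjusted p = 0.0288), Timp2 -1.20 (adjusted p = 0.0325), Mmp2 -1.52 (adjusted p = 0.041) and Adamts20, given above. The calls of Mmp19, Mmp23 and Adamts5 held in every alternative. The Adamts2 call ended without Sox10+EpCAM+ fMaSC replicate 1 (adjusted p = 0.061), and those of Mmp28, Reck, Adamts19, Adamts12, Timp2 and Mmp2 without either library of that group (0.0601 to 0.294). Adamts12, Timp2 and Mmp2 also lost the call without CD24low stroma replicate 1 (0.0688 to 0.0895) or 2 (0.0687 to 0.0891), and Timp2 without CD24+CD49f+ fMaSC replicate 2 (0.0663). Dropping the filter on low values ended the calls of Reck, Adamts19, Adamts12, Timp2 and Mmp2. TPM scaling ended all of these but Reck, and quantile scaling those of Timp2 and Mmp2.

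The fold between fMaSC and stroma was larger in the Sox10/EpCAM sort than in the CD24/CD49f sort for 3 of the 31 genes, by the test of that difference: Mmp23 (-3.16 (SE 0.25, adjusted p = 0.0126)), Mmp19 (-3.39 (SE 0.43, adjusted p = 0.0304)) and Adamts5 (-2.19 (SE 0.34, adjusted p = 0.0457)). Of all genes, 1.51% were called, 1.44% in this direction and 0.0763% in the other. The calls of all 3 ended without either Sox10+EpCAM+ fMaSC library (adjusted p 0.109 to 0.27) or either CD24low stroma library (0.0792 to 0.19), and with TPM scaling. Those of Mmp19 and Adamts5 also ended without the filter on low values, and that of Adamts5 with quantile scaling. Timp1 (-1.72 (adjusted p = 0.0505)) and Adamts2 (-2.59 (adjusted p = 0.0695)) lay just past the threshold on the uncalled side.

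The tested genes were set beside the stromal markers as a percent of the CD24low stroma mean. For Sox10+EpCAM+ fMaSC this is stroma of the other sort. Adamts18 was left out, since its CD24low stroma mean was 0.292 FPKM. The other 30 genes stood at a median of 33.1% (range 1.18% to 247%) in Sox10+EpCAM+ fMaSC and 66.7% (32.2% to 457%) in CD24+CD49f+ fMaSC, with Mmp15 highest in both. The 10 fibroblast and mesenchyme markers stood at a median of 0.875% (0.468% to 9.99%) in Sox10+EpCAM+ fMaSC and 38.8% (29.7% to 72.3%) in CD24+CD49f+ fMaSC. In Sox10+EpCAM+ fMaSC 20 of the 30 genes lay above the highest marker, Mmp2, Mmp14 and Timp1 to Timp4 among them. The other 10 lay within the range of the markers: Mmp9, Mmp19, Mmp23, Mmp28, Reck, Adamts2, Adamts5, Adamts12, Adamts16 and Adamts19. Pdgfra alone set the upper edge of that range (9.99%), and the next marker was Pdgfrb (2.34%). Mmp23, Reck, Adamts12, Adamts16 and Adamts19 lay between these markers. In CD24+CD49f+ fMaSC 12 lay above the highest marker and 18 within the range of the markers. The markers were chosen as stromal genes, so any gene expressed in both compartments can lie above them. The share of all genes above the markers was not counted in either fraction, so these counts are not a result particular to the 30 genes. The part of stromal cells or RNA in the CD24+CD49f+ fMaSC values was not tested. CD24+CD49f+ fMaSC replicate 2 over replicate 1 gave a median ratio of 1.69 for the 31 genes (0.773 to 3.67) and 1.40 for the 10 markers (0.896 to 3.16).

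**Figure D4:**
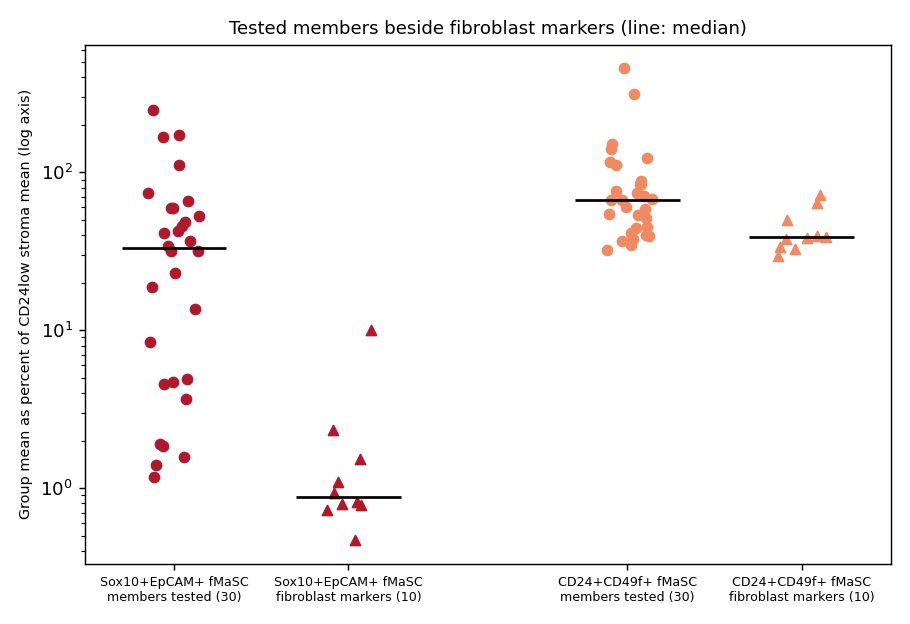
Group mean as a percent of the CD24low stroma mean (log axis) for 30 of the tested genes (circles) and the 10 fibroblast and mesenchyme markers (triangles), in Sox10+EpCAM+ fMaSC (left) and CD24+CD49f+ fMaSC (right), with the median as a line. In Sox10+EpCAM+ fMaSC 20 of the genes lie above the highest marker and 10 within the range of the markers. In CD24+CD49f+ fMaSC 12 lie above and 18 within. The markers were chosen as stromal genes, and the share of all genes above them was not counted. CD24low stroma belongs to the other sort than Sox10+EpCAM+ fMaSC.

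The stroma fractions were compared as 1 library against 2. No member was called for EpCAM-negative stroma against CD24low stroma by limma, 1 had an unadjusted p under 0.05, and 0.0277% of all genes were called, 0.0139% higher and 0.0139% lower. That gene was Timp1, higher in EpCAM-negative stroma by 1.00 (SE 0.21, unadjusted p = 0.00334, adjusted p = 1). The 7 mast cell markers summed to 17.3 FPKM in EpCAM-negative stroma and 275 and 170.5 FPKM in CD24low stroma, and limma called 0 of the 7 between these fractions.

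Genes that act with these proteinases were followed from lists, each read against the same background of 15.6% higher and 9.5% lower. Of the 7 ADAMTS-like genes, which encode proteins related to ADAMTS without the proteinase domain, 6 were tested, 4 fell and 1 rose. Adamtsl4 fell by 2.53 (SE 0.53, adjusted p = 0.0172), Thsd4 by 1.75 (SE 0.31, adjusted p = 0.00975) and Adamtsl5 by 1.63 (SE 0.45, adjusted p = 0.0396), whereas Papln, encoding papilin, rose by 1.73 (SE 0.24, adjusted p = 0.004). Papln had 5.62 and 7.88 FPKM in Sox10+EpCAM+ fMaSC, 2.69 and 4.49 FPKM in CD24+CD49f+ fMaSC, 0.743 FPKM in EpCAM-negative stroma and 0.862 and 0.429 FPKM in CD24low stroma. The Papln call held in every alternative; that of Adamtsl4 ended without CD24+CD49f+ fMaSC replicate 1 (adjusted p = 0.0561) or the EpCAM-negative library (0.075), and that of Thsd4 without the EpCAM-negative library (0.0618). The Adamtsl5 call ended without either Sox10+EpCAM+ fMaSC library, CD24+CD49f+ fMaSC replicate 1, CD24low stroma replicate 1 or the EpCAM-negative library (0.0674 to 0.114). Of the 11 other MMP and ADAMTS genes, Adamts3 alone was tested, and 6 stayed under 0.1 FPKM in every library.

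In the plasminogen system, whose proteinase plasmin activates several proMMPs, 4 of 7 genes were tested, and in the pooled comparison 2 fell and 1 rose. Serpine2, a serpin that blocks plasminogen activators and thrombin, had 184 and 209.6 FPKM in Sox10+EpCAM+ fMaSC, 113 and 107 FPKM in CD24+CD49f+ fMaSC, 24.6 FPKM in EpCAM-negative stroma and 18.9 and 21.4 FPKM in CD24low stroma. It rose by 2.61 (SE 0.18, adjusted p = 0.000254) in every alternative. Plat, the tissue plasminogen activator, fell by 2.00 (SE 0.42, adjusted p = 0.0165) and Plaur, the urokinase receptor, by 0.71 (SE 0.18, adjusted p = 0.0306). The Plat call ended without Sox10+EpCAM+ fMaSC replicate 2 (adjusted p = 0.0518), and that of Plaur without either library of that group, CD24+CD49f+ fMaSC replicate 1, CD24low stroma replicate 1 or the EpCAM-negative library (0.0613 to 0.167). Plau, the urokinase gene, had 14.4 and 13.9 FPKM in Sox10+EpCAM+ fMaSC, 7.41 and 7.01 FPKM in CD24+CD49f+ fMaSC, 3.73 FPKM in EpCAM-negative stroma and 5.52 and 5.15 FPKM in CD24low stroma, with all fMaSC libraries above all stroma libraries. It rose in Sox10+EpCAM+ fMaSC by 1.68 (SE 0.19, adjusted p = 0.00187), a call that ended with TPM scaling (1.03, adjusted p = 0.234), and its pooled difference was 0.90 (SE 0.27, adjusted p = 0.0512).

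All 3 tested genes of the tolloid list fell, of 5 listed. Pcolce, which enhances procollagen C-terminal processing, fell by 3.58 (SE 0.95, adjusted p = 0.0364), the proteinase gene Bmp1 by 0.99 (SE 0.25, adjusted p = 0.0294) and Pcolce2 by 1.05 (SE 0.16, adjusted p = 0.00517). The Pcolce2 call held in every alternative, and those of Pcolce and Bmp1 ended without either Sox10+EpCAM+ fMaSC library, CD24+CD49f+ fMaSC replicate 1 or CD24low stroma replicate 1 (adjusted p 0.0548 to 0.0941), and that of Bmp1 also without the EpCAM-negative library (0.16). Of the 11 ADAM genes, 10 were tested: Adam33 fell by 2.58 (SE 0.77, adjusted p = 0.0487), Adam9 by 0.66 (SE 0.19, adjusted p = 0.0434) and the sheddase gene Adam10 rose by 0.70 (SE 0.14, adjusted p = 0.0163). Each of these 3 calls ended without either Sox10+EpCAM+ fMaSC library or the EpCAM-negative library (0.0531 to 0.184), and with TPM scaling. Adam33 and Adam9 lost the call also without CD24+CD49f+ fMaSC replicate 1 (0.084 and 0.0974) or CD24low stroma replicate 1 (0.0947 and 0.121), and Adam9 without CD24low stroma replicate 2 (0.0666).

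Of 9 genes for activation, induction and clearance, Itgb3 alone was called, falling by 1.14 (SE 0.25, adjusted p = 0.021). Of 11 genes for hyalectans, link proteins and hyaluronan synthases, 3 were tested and Has2 alone was called, falling by 0.94 (SE 0.27, adjusted p = 0.0454). Both calls ended without either Sox10+EpCAM+ fMaSC library, CD24+CD49f+ fMaSC replicate 1, CD24low stroma replicate 1 or the EpCAM-negative library (0.0578 to 0.276), and that of Has2 also without CD24low stroma replicate 2 (0.0764). Vcan, which encodes versican, the substrate of several of the ADAMTS enzymes, had 76.3 and 104 FPKM in Sox10+EpCAM+ fMaSC, 67.2 and 148 FPKM in CD24+CD49f+ fMaSC, 123 FPKM in EpCAM-negative stroma and 149 and 106 FPKM in CD24low stroma, with a pooled difference of -0.38 (SE 0.31, adjusted p = 0.376).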

How the data were processed

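Per the labels' protocols, TruSeq RNA libraries were read on a HiSeq2000 (paired ends of 100 bases, duplicate lanes). Alignment with STAR and quantification with Cufflinks against GRCm38/mm10 are named in the submitters' processing notes, without versions. The deposited values are FPKM per gene, per the file headers; each of the 7 libraries has a column, and all were used; 8 added sequences were left out. The estimated depths are approximate, since 60.7% to 66.1% of the low values lay within 0.15 of a whole fragment.

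The FPKM values were taken as log2(FPKM + 1) for the 14418 genes that reached 1 FPKM in at least 2 libraries. With limma 3.58.1 (R 4.3.3) and its trended empirical Bayes step, a model of the 4 sort groups left 3 residual degrees of freedom, and a model of cell type and sorting strategy, used for the pooled comparison, left 4. Two-sided p-values were adjusted by Benjamini-Hochberg over these genes. EpCAM-negative stroma takes its spread from the other groups. Count models were not run, since the values are FPKM. Groups were read from the labels; replicates were numbered in series order. Alternatives were a pseudocount of 0.1, no filter, TPM and quantile scaling, and leaving out each library.

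The genes, lists and tests were chosen with earlier results of these data known. Library values are printed for genes with a mean of 5 FPKM in a group or a call in any comparison. Up to 4 called genes with 5 FPKM in a group are named per further list. Adamts3 and Pcolce2 were named beyond that rule after their values were seen, as were Vcan, Ibsp and Has1. So were single genes of the leukocyte, fibroblast, and cartilage and bone marker lists. A gene of the plasminogen list is not reported here. The alternatives for genes of the further lists were added after seeing the data. The fit was tested on simulated data. Promoters came from RefSeq and gene identifiers from GENCODE vM21. Tables used pandas 2.3.3 and numpy 2.4.6 under Python 3.11.15, and figures matplotlib 3.10.9.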

Additional observations from a re-analysis of the deposited data

Results flagged for a closer look

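The difference between fMaSC and stroma was not the same in both sorts for 3 genes, by a test of that difference (the Sox10/EpCAM fold minus the CD24/CD49f fold, limma, adjusted over all genes). For Mmp19 it was -3.39 (adjusted p = 0.0304), for Mmp23 -3.16 (adjusted p = 0.0126) and for Adamts5 -2.19 (adjusted p = 0.0457). The fall was larger in the Sox10/EpCAM sort for all 3. The stroma of that sort is 1 library, so its spread was taken from the other groups. The fibroblast and mesenchyme markers, with sums of 48.1 and 77.9 FPKM in Sox10+EpCAM+ fMaSC and 2263 and 3515 FPKM in CD24+CD49f+ fMaSC, moved the same way, and their part in these differences was not tested.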

How the results depend on the processing

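No paired analysis was possible because the labels give the groups no shared replicate numbers. With each library left out in turn, the genes called ran from 426 to 2353 (1545 with all libraries) for the CD24/CD49f sort, 1674 to 5758 (3762) for the Sox10/EpCAM sort, 1563 to 6374 (3621) for the pooled comparison, 4 to 974 (218) for the difference between sorts, 269 to 2509 (1440) between fMaSC fractions and 0 to 11 (4) between stroma fractions. Members called ran from 2 to 15 (8), 10 to 23 (19), 7 to 23 (16), 0 to 10 (3), 3 to 16 (11) and 0 to 0 (0) in the same order. TPM scaling gave 556, 2213, 1604, 59 and 531 genes in the first 5 comparisons, and 1, 0 and 6 members for the CD24/CD49f sort, the difference between sorts and the fMaSC fractions. No filter gave 724 genes between fMaSC fractions, 235 between stroma fractions, and 3, 7, 1 and 5 members for the CD24/CD49f sort, the pooled comparison, the difference and the fMaSC fractions. A pseudocount of 0.1 gave 5 members for the CD24/CD49f sort, and 421 genes and 6 members for the difference, where quantile scaling gave 104 genes.

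TPM scaling moved the median difference of all genes from 0.13 to -0.12 in the CD24/CD49f sort, from 0.09 to -0.63 in the Sox10/EpCAM sort and from 0.12 to -0.32 in the pooled comparison. It split the calls into 792 higher and 812 lower in the pooled comparison (2252 and 1369 as deposited; 1663 and 2056 with quantile scaling) and 594 and 1619 in the Sox10/EpCAM sort (1803 and 1959). Quantile scaling split the CD24/CD49f calls into 855 and 772 (1121 and 424) and those between fMaSC fractions into 526 and 816 (281 and 1159; 13 and 518 with TPM). For the difference between sorts TPM gave 9 and 50 (11 and 207).

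Of 764 values of member differences under the alternatives, 571 kept direction and side of the threshold, 173 lost the call, 13 gained it and 7 turned direction, all 7 in uncalled pooled values. The pooled value of Mmp17 ran from -0.19 to 0.22 with libraries left out: it turned to 0.02 and 0.0078 without Sox10+EpCAM+ fMaSC replicate 1 or 2, to 0.0085 without CD24low stroma replicate 1 and to 0.22 without the EpCAM-negative library. Adamts17 turned to 0.15 without that library, and Timp4 and Adamts15 to -0.029 and -0.10 with TPM scaling. Of 57 called member differences, 19 held in every alternative, as did 4 of 18 for the further lists. In the Sox10/EpCAM sort, dropping the filter also ended the calls of Mmp11, Mmp14, Mmp15 and Adamts10, and TPM scaling that of Mmp11. Changed settings also ended pooled calls of the further lists for which only libraries are named above, such as those of Adamtsl5, Plaur, Bmp1, Pcolce, Itgb3 and Has2. The cause of these changes was not tested. Without the EpCAM-negative library, 3 comparisons could not be fitted. With 3 or 4 residual degrees of freedom, and 1 library in a group, a missed threshold does not show equal levels.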

Other observations

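Mmp13 had 0.0533 and 0 FPKM in Sox10+EpCAM+ fMaSC, 0.0212 and 0.356 FPKM in CD24+CD49f+ fMaSC, 0.0286 FPKM in EpCAM-negative stroma and 0.0397 and 0.0159 FPKM in CD24low stroma. Ibsp, which encodes bone sialoprotein, had 0.0527 and 0.0964 FPKM in Sox10+EpCAM+ fMaSC, 0.0280 and 0.526 FPKM in CD24+CD49f+ fMaSC, 0.0189 FPKM in EpCAM-negative stroma and 0 FPKM in both CD24low stroma libraries. Both genes were highest in CD24+CD49f+ fMaSC replicate 2. Both were below the filter and were not tested. Has1, a hyaluronan synthase gene, had 1.23 and 1.30 FPKM in Sox10+EpCAM+ fMaSC, 34.1 and 162 FPKM in CD24+CD49f+ fMaSC, 110.4 FPKM in EpCAM-negative stroma and 91.7 and 102 FPKM in CD24low stroma, so that the same CD24+CD49f+ fMaSC library lay above every stroma library. Its pooled difference was not called (-2.47, SE 1.09, limma adjusted p = 0.132). Mmp13, Ibsp and Has1 were chosen for this paragraph after their values were seen. The other genes of the cartilage and bone list were not highest in that library. Sp7 and Runx2 were highest in EpCAM-negative stroma (0.511 and 3.11 FPKM). Col2a1 was highest in Sox10+EpCAM+ fMaSC replicate 1 (2.15 FPKM) and Bglap in CD24low stroma replicate 1 (0.510 FPKM). Matn1 reached at most 0.0196 FPKM, in EpCAM-negative stroma.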
